A study of Mus musculus with 7 samples.

Results

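The replication-dependent histone genes were taken as every row of the deposited gene table whose symbol is H2ac, H2bc, H3c or H4c followed only by digits, or is H1f1 to H1f5. This gave 64 of 25571 genes: 5 of linker histone H1, 17 of H2A, 18 of H2B, 11 of H3 and 13 of H4. Of these, 58 had enough counts to be tested, among 15822 genes tested in all. The 6 that were too low were H2ac19, H2bc3, H2bc7, H2bc26, H2bc27 and H4c6.

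The RNA came from CD11b+ tumour-associated macrophages, sorted from orthotopic T387 glioblastoma xenografts in the brains of NSG mice, which lack T, B and NK cells. The mice of 1 group (4 libraries) were given Pracinostat, an inhibitor of histone deacetylases, orally in doses of 30 mg/kg, with 4 doses in each of 3 weeks from day 7 after implantation. The control group (3 libraries, called DMSO here) received the solvent mixture, which contains DMSO, without the drug. The labels also give 3 mg/kg for the prepared drug, call the samples biological replicates, and do not say which animals they came from, so tests measure the spread between these samples. The comparison asks how the histone genes of these macrophages stood after weeks of treatment with the inhibitor.

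Histones package DNA into nucleosomes, in which H2A, H2B, H3 and H4 form the core and H1 binds the linker DNA. The genes studied here are transcribed mainly in S phase, when replicated DNA needs new histones, so their RNA marks cells that are copying their genome. Their messenger RNAs mostly end in a conserved stem-loop, bound by SLBP, instead of a poly(A) tail. Replacement histones, such as H3.3 and H2A.Z, come from separate polyadenylated genes that are used throughout the cell cycle. The libraries were made from total RNA, a type of library that does not depend on a poly(A) tail.

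The stem-loop is shown first, because most of these transcripts share it and it takes the place of the poly(A) tail. It was searched for by its consensus in the annotated transcripts (GENCODE M21, build GRCm38), after the stop codon. Each line gives the 16-base stem-loop in capitals with 5 bases on either side, 5′ to 3′ and written as DNA, for members that the results below turn on or that carry a different stem.
H1f2: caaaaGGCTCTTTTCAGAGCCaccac
H2ac18: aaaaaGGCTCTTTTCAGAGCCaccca
H2bc12: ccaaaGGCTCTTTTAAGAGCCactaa
H3c15: acaaaGGCTCTTTTCAGAGCCaccac
H4c8: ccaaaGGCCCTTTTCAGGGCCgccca
H4c9: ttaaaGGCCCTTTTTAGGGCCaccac
H4c11: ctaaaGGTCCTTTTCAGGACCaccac
The stem-loop was present in 41 of the 59 members that had an annotated transcript. Over single protein-coding transcripts, searched along their whole length and with the members' own not left out, 90 of 58797 (0.153%) held the consensus. In the members the stem-loop began between 22 and 59 bases after the stop codon, with a median of 32. Of the 18 without a match, 13 have fewer than 30 annotated bases after the stop codon, so the search could not reach it there. The same 16 bases were carried by all 3 H1 genes with a match, 9 of 10 H2A, 7 of 9 H2B and 4 of 8 H3 genes. None of the 11 H4 genes with a match carried them. The H4 genes had other bases in the stem, as the lines for H4c8, H4c9 and H4c11 show.

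Of the 59 members matched to RefSeq (GRCm38.p6), 50 lie on chromosome 13 and 9 on chromosome 3. In 8 places an H2A and an H2B gene start back to back, 164 to 249 bases apart, among them H2ac12 and H2bc12 at 178 bases. The 250 bases upstream of the start were searched on both strands in the 54 members with a RefSeq promoter entry, beside all 32851 promoters of the table. The letters TATAAA, a form of the TATA box, were found in 26 members, or 48.1%, against 12.4% of all promoters. The letters CCAAT, a motif bound by NF-Y, were found in 45 members, or 83.3%, against 33.8%, and in every H1, H2A and H2B promoter but in 3 of 11 H4 promoters. The octamer, searched as ATTTGCAT and bound by Oct factors, was found in 10 members, or 18.5%, against 1.6%, and these were 5 H2A and 5 H2B genes. The promoters of H2bc12, the H2B gene with the highest level, and H4c9, the member with the smallest p-value, show the contrast, with these letters in capitals on either strand.
H2bc12, GRCm38.p6 chr13:22035571-22035820, plus strand: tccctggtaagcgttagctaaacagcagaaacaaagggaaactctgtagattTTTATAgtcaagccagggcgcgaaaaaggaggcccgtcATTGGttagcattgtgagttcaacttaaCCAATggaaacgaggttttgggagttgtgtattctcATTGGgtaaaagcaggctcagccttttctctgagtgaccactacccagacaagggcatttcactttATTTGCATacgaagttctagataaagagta
H4c9, GRCm38.p6 chr13:22041363-22041612, minus strand: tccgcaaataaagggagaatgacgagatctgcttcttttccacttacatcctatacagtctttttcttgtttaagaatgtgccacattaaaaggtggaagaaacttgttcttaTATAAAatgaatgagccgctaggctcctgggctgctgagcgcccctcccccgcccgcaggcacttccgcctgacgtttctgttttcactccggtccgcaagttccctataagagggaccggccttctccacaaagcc
The H2bc12 window holds the letters of all 3 motifs, and the H4c9 window holds TATAAA only. These matches describe letters anywhere in the window, and no binding was measured. Distance from the start was not part of the search, and in both printed windows TATAAA lies well upstream of the start. A match is therefore not shown to be a working TATA box.

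The libraries held 10142753 to 16950597 counts, and 3 counts, taken as the floor of detection, corresponded to 0.182 to 0.289 CPM (counts scaled to a common library size), a limit that covers counting error only. Itgam, which encodes the sorted antigen CD11b, lay at 1315 to 2574 CPM in all 7 libraries. The summed level of 14 macrophage markers overlapped between groups, at 13283 to 16961 CPM with DMSO and 14188 to 17964 CPM with Pracinostat. Pracinostat 3 stood apart in that 13 neutrophil markers summed to 6.2 CPM, against 94 to 264 CPM elsewhere. It also had the highest sum over 10 fibroblast markers, at 9875 CPM, although Col1a1 was at 11.7 CPM there, its lowest value, and the list includes Fn1, which macrophages can express. Col1a1 was high in DMSO 2 (701 CPM) and Pracinostat 1 (439 CPM) and at most 32.1 CPM elsewhere. Lymphocyte markers summed to at most 1.49 CPM. Fewer cells of a type and less RNA per cell cannot be told apart in such bulk samples.

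No replication-dependent histone gene changed between the groups by the test used, and their summed level differed by less than the spread between libraries. The members took 1290 CPM in DMSO 1, 852 in DMSO 2 and 995 in DMSO 3. They took 771 CPM in Pracinostat 1, 649 in Pracinostat 2, 1381 in Pracinostat 3 and 892 in Pracinostat 4. The groups overlapped, since both the highest and the lowest library were from treated mice. The control libraries averaged 1046 ± 224 CPM (SD, n = 3), and the treated ones 923 ± 321 CPM (SD, n = 4). The fitted log2 fold change of the sum (Pracinostat minus DMSO here and below, ± standard error) was -0.18 ± 0.24.

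Among single genes, 0 of 58 members passed edgeR's quasi-likelihood test at a Benjamini-Hochberg adjusted p of 0.05, against a background of 0% (0 of 15822 genes). At an unadjusted p under 0.05 there were 0 members and 661 genes in all. The smallest member p was 0.0666 for H4c9, with an adjusted p of 0.9998 in the same edgeR fit. DESeq2 called 27 genes and limma-voom 0, with 0 members in either. By limma-voom, 2 of 58 members had an unadjusted p under 0.05, and the share of all genes was not counted there. In no member did the DMSO and Pracinostat libraries separate without overlap, where 2.59% of all genes separated with Pracinostat lower and 3.51% with Pracinostat higher. A log2 fold change below 0 was fitted for 40 of 58 members, or 69%, against 47.7% of all genes tested. The median log2 fold change was -0.17 over the members tested and 0.02 over all genes tested. Copies of a class share reads and all members share the same 7 libraries, so the members do not count as independent observations of a direction.

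**Figure D1:**
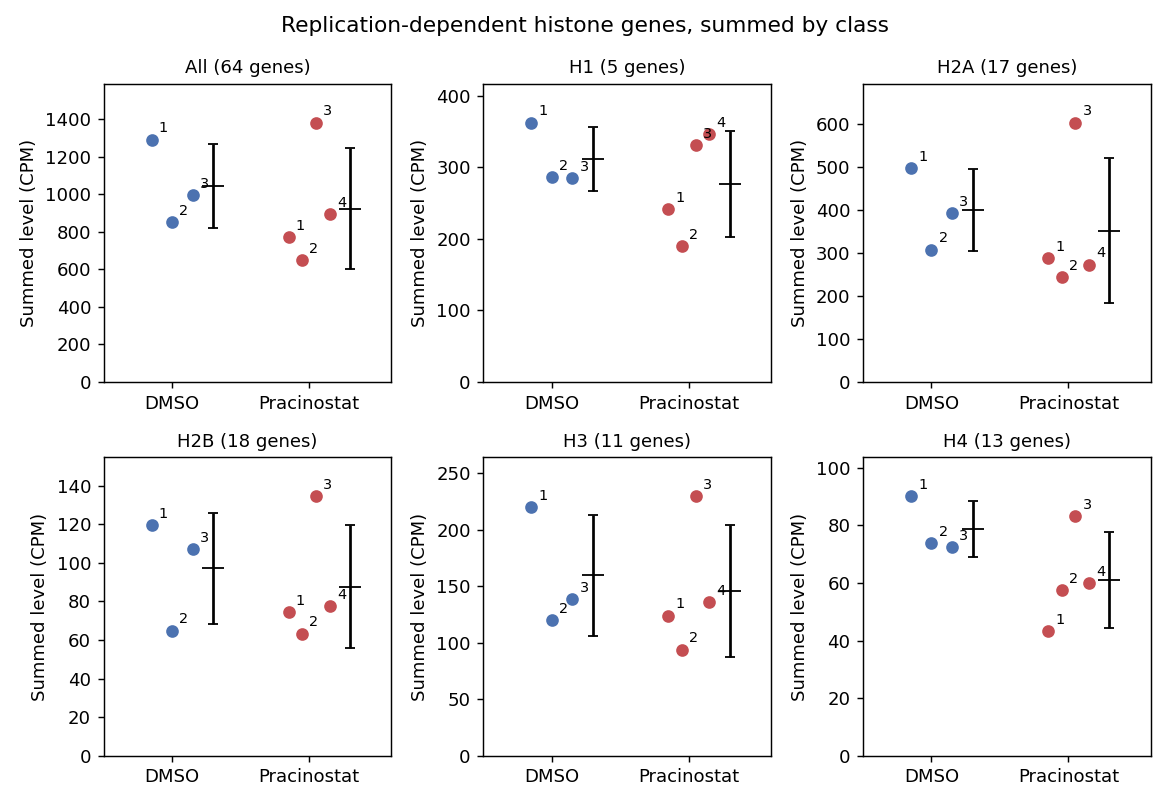
Summed level of the histone genes in each library, in CPM, for all 64 genes and for each class, with the replicate number beside each point and the mean ± SD of the group to its right. The DMSO and Pracinostat points overlap in every panel, and Pracinostat 3 is the highest treated library in every panel but H1.

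The core histones and H1 were compared by class sum, because the way reads are divided among copies does not change a sum. Linker histone H1 took 29.5% of the counts of all members, H2A 38.5%, H2B 9.48%, H3 15.5% and H4 7.04%. Per kilobase of coding length, the sum for H2A was 1017 CPM with DMSO and 897 CPM with Pracinostat. On the same per-length scale, H1 stood at 474 and 423 CPM, H3 at 388 and 355 CPM, H2B at 255 and 230 CPM, and H4 at 253 and 196 CPM. H2A thus had the highest length-adjusted level of the 5 classes in both groups. H4 and H2B had the lowest and were not set apart by their spread. The SD with DMSO was 31.4 CPM for H4 and 75.6 CPM for H2B, and with Pracinostat 53.0 and 83.8 CPM. Bases outside the coding sequence were left out of the length.

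H4, the partner of H3 in the central tetramer, had the fitted difference farthest from 0 of the 5 classes with all 7 libraries, though H2A was farther without Pracinostat 3 (-0.57 against -0.55) and H2B without both collagen-rich libraries, DMSO 2 and Pracinostat 1 (-0.30 against -0.27). Its sum was 90.1, 73.9 and 72.6 CPM in DMSO 1 to 3 and 43.4, 57.7, 83.3 and 59.9 CPM in Pracinostat 1 to 4. All treated libraries except Pracinostat 3 lay below every DMSO library. The means were 78.9 ± 9.8 CPM (SD, n = 3) and 61.1 ± 16.5 CPM (SD, n = 4), and the log2 fold change was -0.37 ± 0.22. Of 12 H4 genes tested, 10 had a negative and 2 a positive fold change, with a median of -0.44.

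H2A, which pairs with H2B and carries the acidic patch of the nucleosome, varied most between libraries. Its sum was 498, 308 and 391 CPM in DMSO 1 to 3 and 288, 244, 603 and 273 CPM in Pracinostat 1 to 4. Pracinostat 3 was above every control, and the other treated libraries were below every control. The log2 fold change was -0.18 ± 0.32, with 11 of 16 H2A genes tested on the negative side and a median of -0.15.

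H3, whose tail is a main site of regulated acetylation, summed to 220, 120 and 138 CPM in DMSO 1 to 3 and to 124, 93.9, 229 and 136 CPM in Pracinostat 1 to 4. The log2 fold change was -0.13 ± 0.31, with 6 of 11 genes negative. H2B summed to 119.8, 64.8 and 107 CPM in DMSO 1 to 3 and to 74.6, 63.3, 135 and 77.8 CPM in Pracinostat 1 to 4. Its log2 fold change was -0.15 ± 0.27, with 8 of 14 genes negative. In both classes the groups covered much the same range, with Pracinostat 3 highest and Pracinostat 2 lowest.

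Linker histone H1, which compacts the chromatin fibre, followed another order of libraries. Its sum was 363, 286 and 285 CPM in DMSO 1 to 3 and 241, 190, 331 and 346 CPM in Pracinostat 1 to 4. DMSO 1 was highest, followed by Pracinostat 4 and Pracinostat 3. The log2 fold change was -0.17 ± 0.20, and all 5 genes tested were negative, from -0.37 for H1f1 to -0.03 for H1f5. This did not hold without DMSO 1, where H1f2 was at 0.06 and H1f5 at 0.07, while H1f1, H1f3 and H1f4 stayed negative. H1 made up 23.97% of the member counts in Pracinostat 3 and 38.8% in Pracinostat 4, the extremes of the 7 libraries, while H2A went the other way, at 43.6% and 30.6%.

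Single members differ widely in how far they can be read, because many are near copies. A stretch of 150 bases, the length of 1 sequencing read, was shared exactly with the coding sequence of another member in 46 of the 59 with sequence. This held for 13 of 16 H2A, 12 of 15 H2B, 11 of 11 H3 and 10 of 12 H4 genes, and for 0 of 5 H1 genes. In 29 members at least 50% of such stretches were shared. H1 members can therefore be read 1 by 1 with the least uncertainty, and the values of core histone copies are estimates of how shared reads were split.

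H2ac23 with H2ac24 and H4c17 with H4c18 are 2 of the 3 pairs of members with the same coding sequence. In the other pair, H2ac18 with H2ac19, H2ac19 stayed at no more than 0.16 CPM. How reads were divided within a pair was not tested. H2ac23 lay at 22.2, 0 and 36.8 CPM in DMSO 1 to 3 and at 34.6, 0, 32.0 and 0 CPM in Pracinostat 1 to 4, with up to 573 expected counts. H2ac24 lay at 79.7, 93.4 and 85.4 CPM in DMSO 1 to 3 and at 19.0, 53.8, 107.8 and 59.1 CPM in Pracinostat 1 to 4. Where H2ac23 was at 0, H2ac24 held the whole level of the pair. The coefficient of variation over the 7 libraries was 96.9% for H2ac23, 41.7% for H2ac24 and 39.05% for their sum.

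H4c17 was at 12.2 CPM and H4c18 at 0 in Pracinostat 1, whereas H4c17 was at 1.76 CPM and H4c18 at 25.8 CPM in Pracinostat 2. Their sum was 24.2, 23.6 and 21.1 CPM in DMSO 1 to 3 and 12.2, 27.6, 25.5 and 16.5 CPM in Pracinostat 1 to 4. The sum had a coefficient of variation of 25.15%, against 50.3% and 82.1% for the single genes. Because the copies share a coding sequence, the fold change of 1 copy, -0.46 ± 0.58 for H4c17 and 0.15 ± 1.37 for H4c18, was not read as a measure of the locus.

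**Figure D2:**
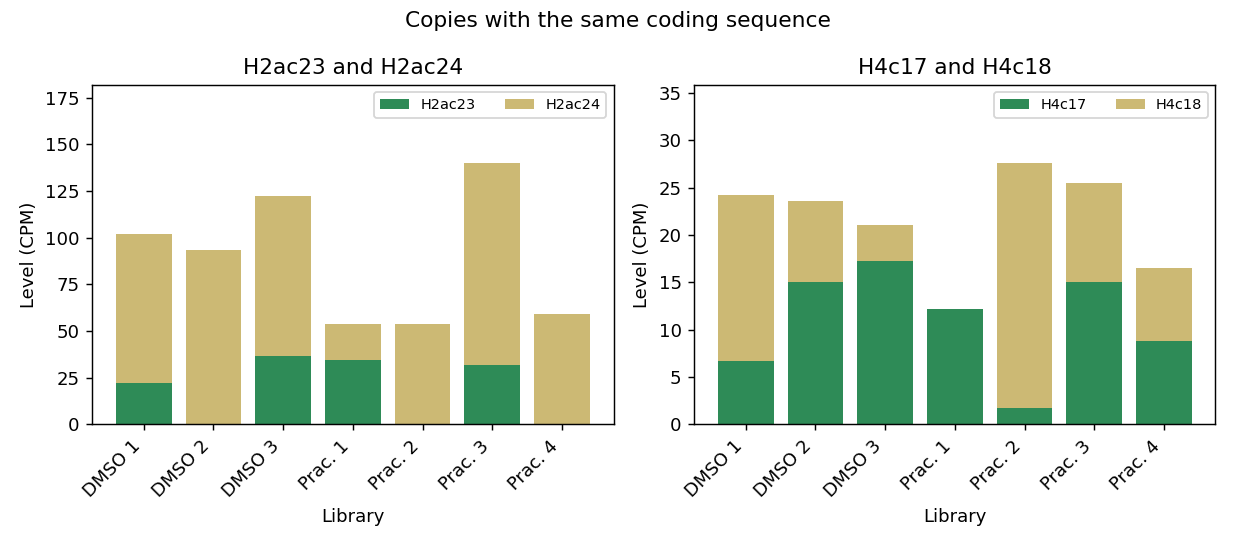
Level in CPM of H2ac23 and H2ac24 (left) and of H4c17 and H4c18 (right), stacked, in each of the 7 libraries. H2ac23 is at 0 in DMSO 2, Pracinostat 2 and Pracinostat 4, and H4c18 is at 0 in Pracinostat 1, while the stacked height varies less, relative to its mean, than either single copy.

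Over all 7 groups of copies that share a 150-base stretch, the sum varied by 25.15% to 39.7% (coefficient of variation), and 40 of the 46 genes in them varied more than the sum of their own group. By class, the sum varied by 21.0% for H1, 35.9% for H2A, 31.1% for H2B, 34.4% for H3 and 23.4% for H4. The median tested gene varied by 32.7%, 60.9%, 58.8%, 61.9% and 52.5% in the same order. In H1, where no gene shares a stretch, every gene also varied more than the sum, from 23.5% to 48.1%. A sum can vary less than its parts without shared reads, so these values do not measure the division of reads. Of the 64 members, 21 were at 0 in at least 1 library, and 6 of those had over 100 expected counts in another library.

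Among H1 genes, H1f2 and H1f4, the most widely expressed subtypes, had the highest levels. H1f2 lay at 191, 123 and 147 CPM in DMSO 1 to 3 and at 138, 99.3, 129 and 195 CPM in Pracinostat 1 to 4. The groups overlapped fully, with a log2 fold change of -0.13 ± 0.22. H1f4 lay at 109.8, 103.8 and 81.9 CPM with DMSO and at 67.1, 59.8, 114 and 91.2 CPM with Pracinostat. Its log2 fold change was -0.25 ± 0.22, with Pracinostat 1 and 2 below every control library and Pracinostat 3 above them. H1f5 lay at 33.2 to 40.5 CPM with DMSO and 20.4 to 56.9 CPM with Pracinostat. H1f1 (-0.37 ± 0.48) and H1f3 (-0.27 ± 0.48) had lower levels, of 4.22 to 21.1 CPM over all libraries.

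Among H2A genes, H2ac24, H2ac13 and H2ac18 had the highest mean levels. H2ac13 lay at 83.3, 55.1 and 80.0 CPM with DMSO and at 61.2, 25.9, 113 and 58.4 CPM with Pracinostat, a log2 fold change of -0.17 ± 0.42. H2ac18 lay at 76.3, 45.7 and 48.3 CPM with DMSO and at 45.8, 51.9, 72.5 and 37.5 CPM with Pracinostat, with a fold change of -0.13 ± 0.26. The reads of H2ac18 cannot be told apart in the coding sequence from those of H2ac19, which has the same sequence and was assigned at most 0.16 CPM. H2ac4 lay at 16.9, 5.99 and 5.79 CPM with DMSO and at 5.17, 3.40, 11.7 and 8.01 CPM with Pracinostat, with a fold change of -0.44 ± 0.55 and DMSO 1 highest. The fitted fold changes of H2A genes ran from -0.52 for H2ac24 to 1.00 ± 1.83 for H2ac21, a gene at no more than 2.04 CPM.

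Among H2B genes, H2bc12 and H2bc18 had the highest mean levels. H2bc12 lay at 20.7, 10.1 and 30.9 CPM with DMSO and at 14.7, 17.9, 22.3 and 16.1 CPM with Pracinostat, so that the treated libraries fell inside the range of the controls. H2bc18 lay at 18.9, 13.4 and 21.1 CPM with DMSO and at 10.4, 13.1, 19.3 and 11.8 CPM with Pracinostat, a log2 fold change of -0.39 ± 0.33. H2bc8 lay at 19.1, 5.91 and 11.6 CPM with DMSO and at 6.05, 0.30, 20.7 and 15.6 CPM with Pracinostat, so that the treated libraries held both ends of its range (-0.20 ± 1.04). The extremes were H2bc24 (-1.997 ± 1.80) and H2bc11 (1.89 ± 1.12). H2bc11 lay at 2.28, 0 and 2.19 CPM with DMSO and at 6.67, 0.97, 9.96 and 4.54 CPM with Pracinostat. It was the positive member farthest from 0, and Pracinostat 2 was below 2 of its 3 control values.

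Among H3 genes, H3c15, H3c2 and H3c6 had the highest mean levels. H3c15 lay at 57.6, 35.6 and 45.7 CPM with DMSO and at 36.9, 25.6, 65.3 and 20.4 CPM with Pracinostat, a log2 fold change of -0.32 ± 0.35. H3c2 lay at 38.0, 22.5 and 31.0 CPM with DMSO and at 22.2, 19.0, 39.1 and 21.5 CPM with Pracinostat, with a fold change of -0.26 ± 0.30. In H3c2 every treated library except Pracinostat 3 was below every control. H3c6 differed by -0.10 ± 0.34. H3c7 (-1.72 ± 2.02) and H3c3 (1.20 ± 1.89) marked the ends of the class and were under 3 CPM in every library.

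The H4 genes held the members with the smallest p-values, H4c9 and H4c8. H4c9 lay at 4.63, 10.9 and 10.4 CPM in DMSO 1 to 3 and at 2.99, 2.92, 6.07 and 4.73 CPM in Pracinostat 1 to 4. The log2 fold change was -1.05 ± 0.53, and the groups overlapped through DMSO 1, the lowest control. H4c8 lay at 5.65, 8.86 and 8.61 CPM with DMSO and at 1.97, 0.79, 6.67 and 2.61 CPM with Pracinostat, a log2 fold change of -1.35 ± 0.69, or -2.11 without Pracinostat 3. Here the overlap came from DMSO 1 and Pracinostat 3. Neither difference passed the edgeR test (unadjusted p = 0.0666 and 0.0692, adjusted p = 0.9998 for both). Both genes share coding stretches with other H4 genes, and the sum of the 8 H4 genes linked in this way was 46.4, 36.1 and 41.3 CPM with DMSO and 23.8, 20.05, 42.2 and 29.7 CPM with Pracinostat. In that sum too, Pracinostat 3 was the treated library within the control range. H4c12, the most positive gene of the class, differed by 0.28 ± 0.46.

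**Figure D3:**
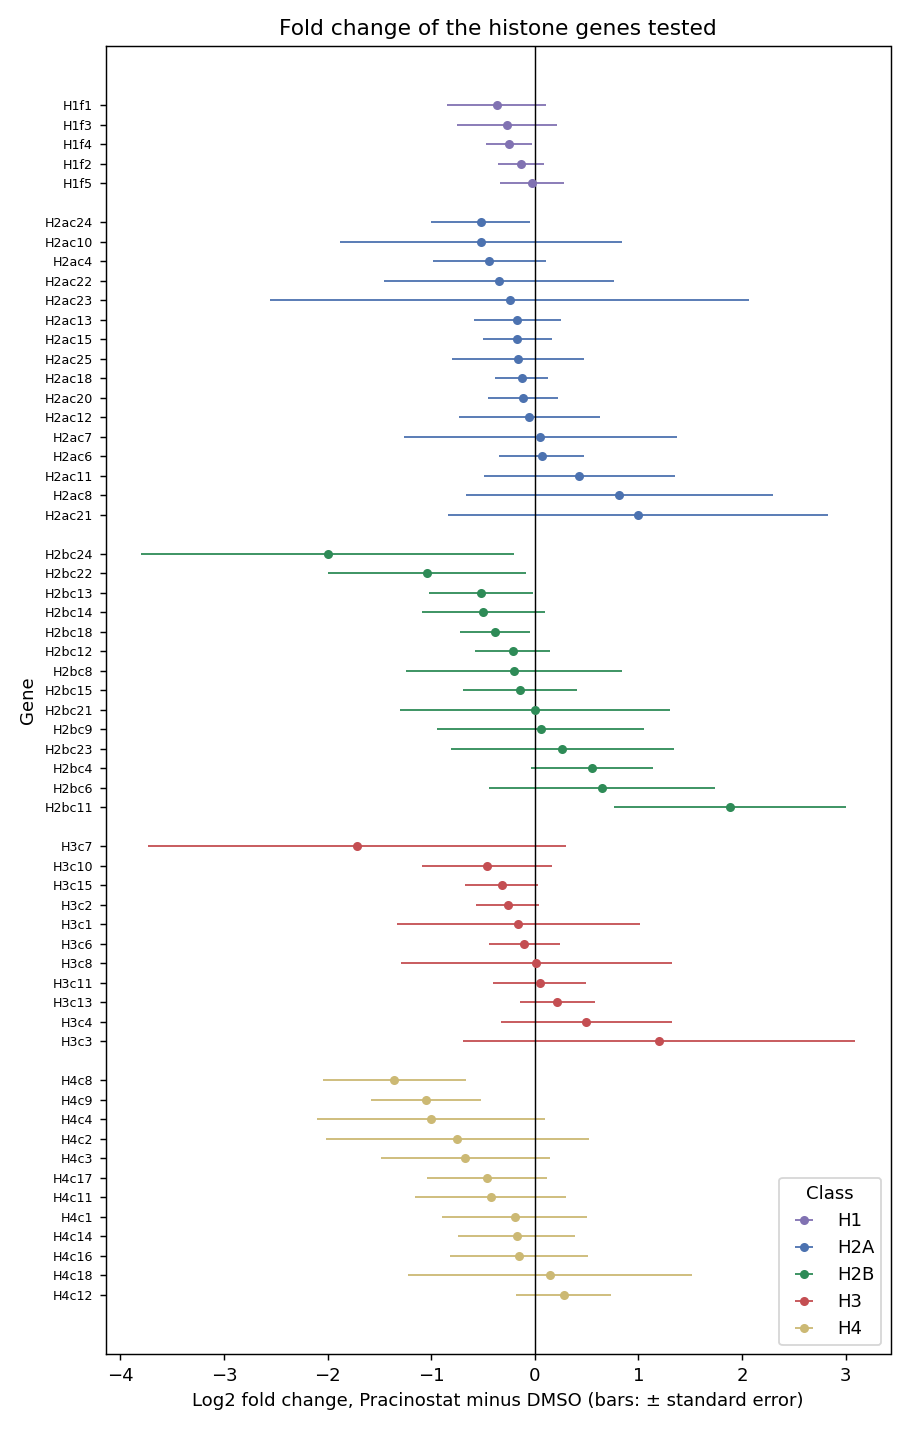
Log2 fold change (Pracinostat minus DMSO) of the 58 histone genes tested, with bars of 1 standard error, sorted within each class. H1 and most H4 points lie left of 0, H2bc24 and H2bc11 mark the ends at -1.997 and 1.89, and the widest bars belong to H2ac23, H3c7 and H3c3.

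The members also differed between libraries of the same group. Of the 58 members tested, 25 (43.1%) had their highest level in Pracinostat 3, where 16.9% of all genes tested had theirs. DMSO 1 was the highest library for 16 members (27.6%), against 13.0% of all genes. Pracinostat 2 was lowest, alone or tied, for 23 members (39.7%), against 15.4% of all genes. By the same count, DMSO 1 was lowest for 0 members and Pracinostat 3 for 1, H2bc24, which was at 0 in 3 treated libraries. Copies share reads, so these counts describe the libraries and are not independent events.

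**Figure D4:**
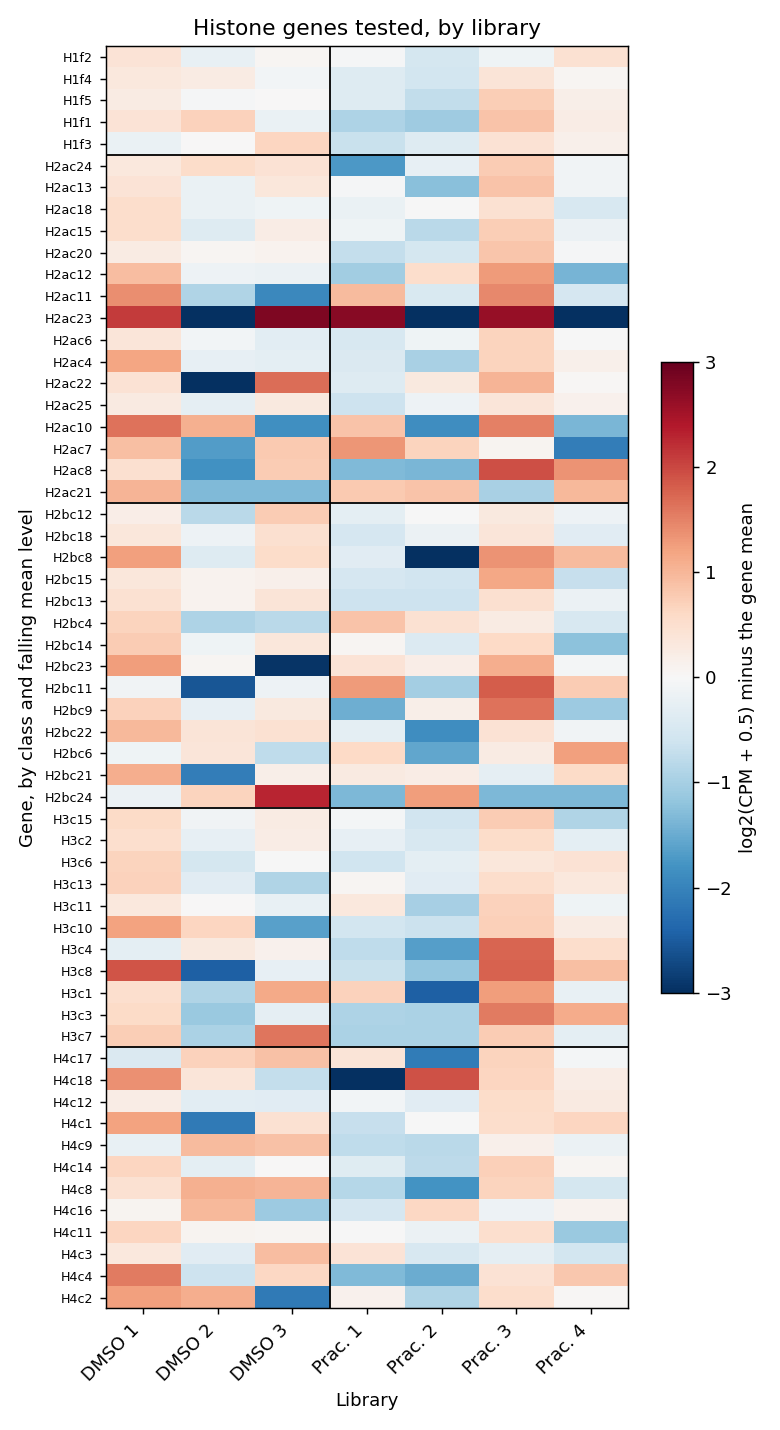
Deviation of log2(CPM + 0.5) from the mean of each gene, for the 58 histone genes tested (colour, with values beyond -3 and 3 shown at the end of the scale), with libraries in columns and genes in rows by class and falling mean level. The columns of DMSO 1 and Pracinostat 3 are mostly red in all 5 classes, the column of Pracinostat 2 is mostly blue, and H2ac23 switches between the ends of the scale.

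Single libraries set the size of the group difference. Without Pracinostat 3, the other 3 treated libraries averaged 771 ± 122 CPM (SD, n = 3) against 1046 ± 224 CPM (SD, n = 3) with DMSO, and the log2 fold change of the sum was -0.44. By class it was then -0.26 for H1, -0.57 for H2A, -0.44 for H2B, -0.43 for H3 and -0.55 for H4. Of 56 members tested, 47 were negative, 0 were called by edgeR and 4 had an unadjusted edgeR p under 0.05. The share of all genes at that unadjusted limit was not counted in this fit. The H2A sum (244 to 288 CPM) and the H4 sum (43.4 to 59.9 CPM) of these 3 libraries lay below every control library, at 308 to 498 CPM and 72.6 to 90.1 CPM. In 9 of 58 members (15.5%) the remaining libraries were all below the controls, against 4.35% of all genes, and in 0 members were they all above, against 5.89%. These 9 were H2ac20, H2ac24, H2bc13, H2bc15, H2bc18, H2bc22, H3c2, H4c8 and H4c11. Pracinostat 3 was the highest treated library for these genes, so lower treated values follow in part from leaving it out. Without DMSO 1, the highest control, the log2 fold change was 0.00 for the sum of all members, 0.01 for H2A, 0.03 for H2B, 0.18 for H3, -0.04 for H1 and -0.26 for H4. Of 60 members tested then, 30 were negative and 4 had an unadjusted edgeR p under 0.05, the same number as without Pracinostat 3. Without Pracinostat 2, the log2 fold change was 0.03 for H3 and -0.05 for the sum of all members.

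The genes that accompany histone synthesis in S phase were read beside the members. None of the lists held a gene called by edgeR. For the counts of positive and negative genes in these lists, the background was 47.7% negative over all genes tested, with a median of 0.02. In a list of 52 genes of S phase and DNA replication, 41 had a positive fold change, with a median of 0.18. The list summed to 1451, 1259 and 1752 CPM in DMSO 1 to 3 and to 1587, 1192, 2818 and 1095 CPM in Pracinostat 1 to 4. Pracinostat 3 was highest here as in the histone sum, and the other treated libraries lay within or below the range of the controls. DMSO 1, next after Pracinostat 3 for histones, was only in the middle. The groups separated without overlap in 2 of the 52 genes, where 2.59% of all genes separated with Pracinostat lower and 3.51% with Pracinostat higher. Cdc6, which loads the replicative helicase, was higher in every treated library, at 6.95 to 17.3 CPM against 1.96 to 6.43 CPM. Its log2 fold change of 1.74 ± 0.56 did not pass (edgeR adjusted p = 0.9998). Mcm10, a replication initiation factor, differed by 0.88 ± 0.37 and Ccne1, cyclin E1, by 1.19 ± 0.65, and without Pracinostat 3 by 0.49 and 0.45. Pcna, the replication clamp, differed by 0.16 ± 0.33 and Mcm2, a helicase subunit, by 0.44 ± 0.50, both highest in Pracinostat 3, and without it they differed by -0.16 and -0.08.

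A list of 38 genes of G2 and mitosis gave the same order at the top, with 3580 CPM in Pracinostat 3 against 1574 to 2366 CPM elsewhere, and 25 of 38 genes positive (median 0.10). Mki67, the proliferation marker, lay at 703, 1042 and 1075 CPM in DMSO 1 to 3 and at 744, 808, 1589 and 630 CPM in Pracinostat 1 to 4. DMSO 1 was thus next to last for Mki67 while it was among the highest for every histone class. Top2a, the topoisomerase of dividing cells, lay at 113 to 149 CPM with DMSO and at 102 to 107 CPM in the treated libraries except Pracinostat 3, where it was 247 CPM. Cdkn1a, which encodes the inhibitor p21, lay at 68.9 CPM in Pracinostat 3 and at 94.3 to 154 CPM in the other libraries, with a log2 fold change between groups of 0.16 ± 0.24. In the list of cell cycle exit and CDK inhibitors, 10 of 16 genes were positive (median 0.20), and 1 separated without overlap between groups. Cdkn2d, which encodes the inhibitor p19, was higher in every treated library, at 8.81 to 15.4 CPM against 1.52 to 8.79 CPM. Its log2 fold change of 1.26 ± 0.56 did not pass (edgeR adjusted p = 0.9998) and was 2.06 without DMSO 1 and 0.84 without DMSO 2.

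Non-polyadenylated small RNAs gave a different order. A list of 10 such RNAs summed to 6142, 4569 and 3562 CPM in DMSO 1 to 3 and to 4125, 3264, 2824 and 5810 CPM in Pracinostat 1 to 4. The means were 4758 ± 1300 CPM (SD, n = 3) and 4006 ± 1318 CPM (SD, n = 4). Of 7 tested, 5 had a negative fold change, with a median of -0.15, beside -0.17 for the members. DMSO 1 and Pracinostat 4 were highest, as they were for H1, and Pracinostat 3 was lowest. Rn7sk, the 7SK RNA that restrains the elongation factor P-TEFb, lay at 4746, 2938 and 2961 CPM with DMSO and at 2943, 2724, 2477 and 3770 CPM with Pracinostat. It made up most of the list sum in every library, and its log2 fold change was -0.25 ± 0.19. Rmrp, the RNA of RNase MRP, was also highest in DMSO 1, at 272 CPM. Its log2 fold change was -0.44 ± 0.18, with an unadjusted edgeR p of 0.0272 and an adjusted p of 0.9998. The part that library make-up, as read from these RNAs, or the share of cycling cells had in the level of histone RNA was not tested.

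**Figure D5:**
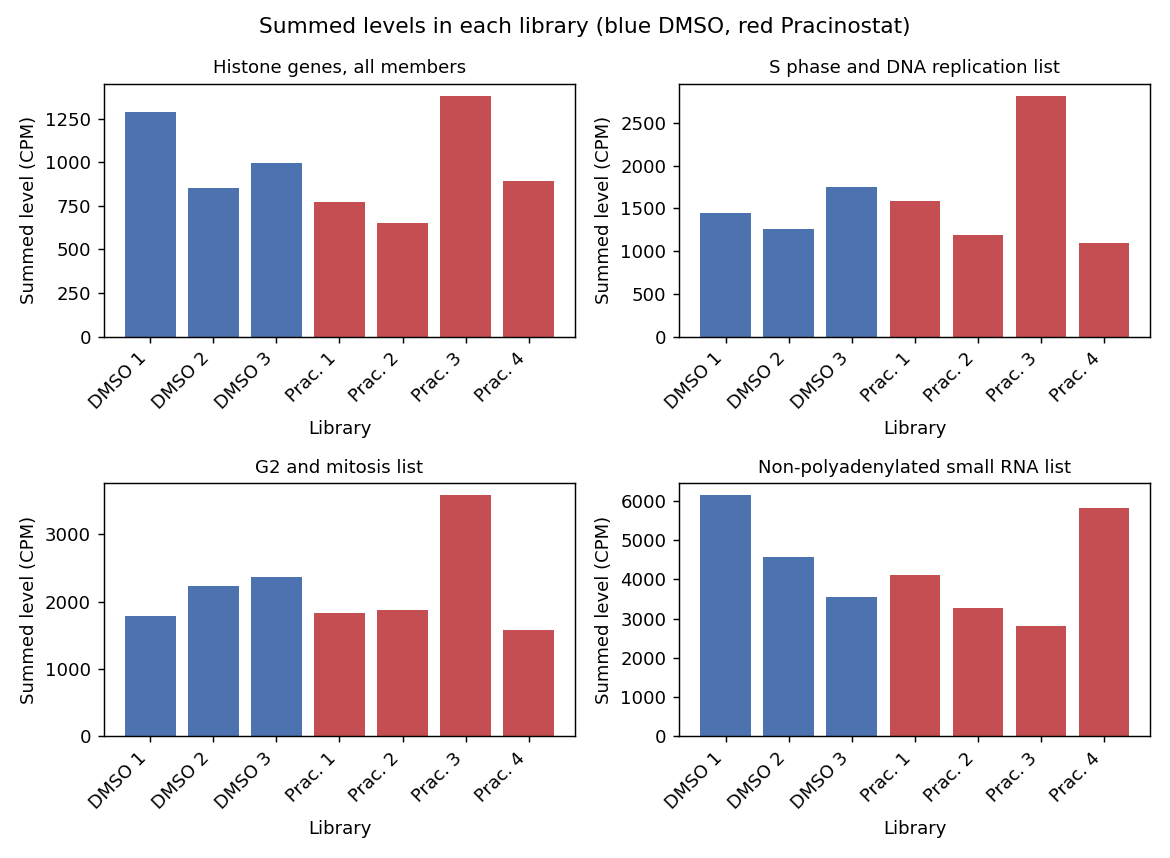
Summed level in CPM of the 64 histone genes and of 3 gene lists in each library, with DMSO in blue and Pracinostat in red. Pracinostat 3 is highest for the histone genes and for both cell cycle lists, whereas DMSO 1 is high for the histone genes and for the small RNAs but not for the cell cycle lists.

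The genes that make and process histone messages had a summed level that varied less between libraries than the histone sum, while single genes such as Npat varied more than the list sum. The list of 32 genes tested, from transcription by NPAT to cleavage at the stem-loop, summed to 1894 to 1996 CPM with DMSO and 1938 to 2123 CPM with Pracinostat, with 15 positive and 17 negative genes. Slbp, which encodes the protein that binds the stem-loop, lay at 55.4, 46.0 and 70.6 CPM with DMSO and at 84.1, 60.0, 79.6 and 62.5 CPM with Pracinostat, a log2 fold change of 0.32 ± 0.21. Npat, the coactivator of histone gene transcription, differed by 0.36 ± 0.31, or 0.02 without Pracinostat 4, and ran from 24.7 CPM in Pracinostat 2 to 68.5 CPM in Pracinostat 4. Of 27 histone chaperone and chromatin assembly genes, 20 were positive, with a median of 0.12. Ipo4, an importer of H3 and H4, differed by 0.40 ± 0.20, and Chaf1a, the large subunit of the assembly factor CAF-1, by 0.75 ± 0.49, or 0.16 without Pracinostat 3, with 80.4 CPM in Pracinostat 3 and at most 37.9 CPM elsewhere.

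The replacement and variant histones, taken as a sum, lay apart from the members in their order of libraries, though H2ax was also highest in Pracinostat 3. Their 11 tested genes summed to 1470, 1167 and 1594 CPM in DMSO 1 to 3 and to 1630, 1397, 1248 and 1443 CPM in Pracinostat 1 to 4, so that Pracinostat 3 was next to last. H3f3b, which encodes H3.3, lay at 574 to 868 CPM with DMSO and 689 to 863 CPM with Pracinostat (0.15 ± 0.16). It was a large part of the sum, so the order of the sum is not that of every gene in it. H2az1, which encodes H2A.Z, differed by -0.23 ± 0.20 and H1f0, the linker histone of non-dividing cells, by 0.10 ± 0.19. H1f0 is known from cultured cells as a gene induced by deacetylase inhibitors, and here it lay at 70.6 to 100.1 CPM with DMSO and 69.8 to 97.3 CPM with Pracinostat. H2ax, whose product marks DNA breaks when phosphorylated, differed by 0.45 ± 0.24. It lay at 57.3 CPM in Pracinostat 3 and at 29.9 to 46.6 CPM in the other libraries. H2aj differed by -0.78 ± 0.43. Without DMSO 3, where H2aj was at 39.7 CPM against 9.18 and 19.2 CPM in the other controls, its fold change was -0.11. None of these passed the edgeR test.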

How the data were processed

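The authors deposited expected counts for each gene symbol in 7 libraries, as whole numbers and without normalization. RSEM, STAR, Trim Galore, FastQC, MultiQC and DESeq2 are listed in the submitters' processing notes without versions or roles, with GRCm39 as the build. Which annotation and strand option were used is not given in the sources used here, and counts of overlapping and antisense genes are uncertain. RSEM divides reads that fit several copies by estimation, which is why sums are given beside single members.

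Groups were taken from the sample titles. Genes were tested with edgeR 4.0.16 (R 4.3.3; TMM scaling, filterByExpr at min.count 10, robust quasi-likelihood fit, two-sided) and adjusted by Benjamini-Hochberg over 15822 genes. Class sums replaced the members in the same table and have a fold change and standard error but no p-value. Levels are CPM on TMM-scaled library sizes, and depth per library limits precision for genes near 3 counts. The script was tested on simulated data. No pair of libraries looked duplicated (the lowest chi-square per degree of freedom was 32.3 over 21 pairs).

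Alternatives were other scalings, filters, DESeq2 1.42.0, limma-voom (limma 3.58.1), other sums, the replicate number as a block and leaving out each library; leaving out both collagen-rich libraries was added after seeing the data, as was the count of members that separate without Pracinostat 3. Values are given for the 3 genes of each class with the highest mean level and the 2 with the smallest p, for the 3 genes of each list with the smallest p, in part, and for 10 genes listed in advance. H1f3, H2ac19, H2ac21, H2ac23, H2bc24, H3c3, H3c7, Rn7sk, Rmrp, H2ac20, H2bc13, H2bc15, H2bc22, H4c11, Col1a1 and Itgam are named outside this rule, most of them after their values were seen. Members and lists were chosen with earlier results of these data known. Sequences came from annotated transcripts (GENCODE M21) and RefSeq promoters of GRCm38, an older build than the counts, and matched 59 members.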

Additional observations from a re-analysis of the deposited data

Results flagged for a closer look

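Values of the 4 Pracinostat libraries were screened for a single library far from the others, by comparing its gap to the nearest library, as a share of the range of the group, with Dixon's 95% critical value. The 3 DMSO libraries are too few for this screen. Of 78 values screened, 7 passed, and chance passes about 1 in 20. Pracinostat 3 accounted for 5 of them. The H2A sum was 602.8 CPM there, against 244 to 288 CPM in the other treated libraries and 308 to 498 CPM with DMSO. H3c2 was at 39.1 CPM, against 19.0 to 22.2 CPM in the other treated libraries and 22.5 to 38.0 CPM with DMSO. The G2 and mitosis list summed to 3580 CPM, Top2a was at 246.9 CPM and Aurka, a mitotic kinase, at 21.8 CPM, each above all other libraries of both groups. In Pracinostat 4, Rmrp was at 186.7 CPM, against 153 to 155 CPM in the other treated libraries, which is within the DMSO range. In Pracinostat 1, Col1a1 was at 438.9 CPM, against 11.7 to 23.8 CPM in the other treated libraries, and DMSO 2 was higher still, at 701 CPM.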

How the results depend on the processing

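The number of members called was 0 under every alternative run. The number of genes called in the whole table, 0 in the edgeR fit, was 63 without the low-count filter, 27 with DESeq2, 4 with the replicate block, and 0 to 3 when each library was left out in turn (3 without DMSO 3). The median log2 fold change of the members tested stayed between -0.26 and -0.17 under other scalings, filters and tests, and ran from -0.55 (without Pracinostat 3) to 0.00 (without DMSO 1) when a library was left out. The sum of all members ran from -0.44 to 0.00 over the same libraries left out, the H2A sum from -0.57 to 0.01, the H2B sum from -0.44 to 0.03, the H3 sum from -0.43 to 0.18, the H1 sum from -0.31 to -0.03 and the H4 sum from -0.55 to -0.23. Without the member with the most counts, the H3 sum was -0.06 and the H2A sum -0.10. Without both collagen-rich libraries, the sum of all members was -0.22 and the H4 sum -0.27. With the replicate block the sum of all members was -0.22, the H1 sum -0.32 and the H4 sum -0.40. The replicate numbers were not shown to pair the samples: deviations of same-numbered libraries correlated at 0.0445, -0.0352 and 0.0728. Genes near the floor and copies of shared sequence are limited most by depth and by the division of reads.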
